A study of Mus musculus with 2 samples.

Results

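Epcam+ cells were the regulatory T (Treg) cells with 1 or more UMIs of Epcam, the gene of the epithelial cell adhesion molecule. A UMI, or unique molecular identifier, marks 1 captured RNA molecule. The rule took 1398 of the 7024 Treg cells in the count table, of which 365 were among the 3634 cells of the control library and 1033 among the 3390 cells of the rescued library. The values that chose the cells were the Epcam counts themselves. Because the cells were chosen by these counts, every level of Epcam below is a description. All other genes are described as a comparison with Epcam- cells, which had 0 Epcam UMIs, of the same library at a matched number of UMIs per cell. The study named Epcam, Ifngr1, Lrrc32 and Il4ra as transcripts of a persisting Treg subset from these same libraries, so their values here are not independent evidence for that subset. The study also followed the subset by flow cytometry of the proteins in other mice, including mice with time-stamped Treg cells. Protein was not measured in the data used here.

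Both groups were C57BL/6 male mice given 4-hydroxytamoxifen (4-OHT) once, on postnatal day 14, and their age was 7 months. Control mice had the genotype Foxp3DTR-GFP/yCd4creERT2, in which Foxp3 is active throughout life and is reported by GFP. Rescued mice had the genotype Foxp3LSL/yCd4creERT2, in which a stop cassette silences Foxp3 until the 4-OHT-dependent Cre, made in cells that use the Cd4 promoter, removes it. By the study's methods all mice also carried the R26Tom reporter, so that cells in which Cre was active at treatment, and their descendants, make tdTomato. GFP+ Treg cells were sorted from spleen and lymph nodes, pooled from 5 control and 4 rescued mice, and 1 droplet library was made per group. There were therefore no replicates and no test. Mice cannot be told apart within a library, and genotype, mouse and capture cannot be told apart between the libraries. The control library held 15446201 UMIs (median 3739.5 a cell) and the rescued library 15537656 UMIs (median 3846 a cell). The 2 libraries shared 3 cell barcodes. Brackets give 95% intervals, exact binomial (Clopper-Pearson) for shares of cells and conditional exact for ratios, which cover counting error only.

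EpCAM is a surface glycoprotein that binds itself on neighbouring cells. It is best known on epithelium, and Langerhans cells and some T cells carry it too. Proteases of the ADAM family and gamma-secretase can cleave it, and the released inner part acts with beta-catenin and Lef1. Ifngr1 encodes the ligand-binding chain of the interferon-gamma receptor, which signals through the kinases Jak1 and Jak2. Il4ra encodes the interleukin-4 receptor alpha chain, which signals through Stat6. Lrrc32 encodes GARP, which holds latent TGF-beta on the surface of activated Treg cells, and Il2ra encodes CD25, part of the high-affinity receptor for interleukin-2. In the GRCm38 build (GENCODE annotation) the genes lie on chromosome 17, 87635979 to 87651129 (Epcam), chromosome 10, 19591949 to 19610229 (Ifngr1), chromosome 7, 125552120 to 125579474 (Il4ra), chromosome 7, 98489283 to 98502181 (Lrrc32) and chromosome 2, 11642807 to 11693193 (Il2ra).

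Epcam was sparse in both libraries and more frequent in the rescued one. Epcam+ cells made up 10.04% (9.09 to 11.1) of control and 30.5% (28.9 to 32.1) of rescued cells. Most of them had a single Epcam UMI, 290 of 365 in the control and 624 of 1033 in the rescued library. In the control library 48 cells had 2 Epcam UMIs and 27 had 3 or more, up to 7, and in the rescued library 234 cells had 2 and 175 had 3 or more, up to 9. Just inside the threshold, cells with 1 Epcam UMI had a median of 3803 other UMIs in the control library and 3905 in the rescued library. Just outside it, the 3269 control and 2357 rescued cells with 0 had 3729 and 3763. Over all cells Epcam reached 31.2 CPM (UMIs per 1000000, with Epcam left out of the total) in the control and 113 CPM in the rescued library, a log2 ratio of 1.86 (1.71 to 2.01). With every cell thinned to 1000 UMIs, the shares were 2.94% (2.42 to 3.55) and 10.5% (9.52 to 11.6). With 2 or more UMIs asked for, they were 2.06% (1.63 to 2.58) and 12.1% (10.99 to 13.2).

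Shares of Epcam+ cells depend on depth, so they are given by depth as well. When the cells of a library were split into 5 equal classes by their UMIs, the share of Epcam+ control cells was 10.2%, 8.80%, 7.98%, 7.30% and 15.96% from the shallowest to the deepest class. In the rescued library it was 25.1%, 28.3%, 26.5%, 31.7% and 40.7%. The rescued share was above the control share in each of the 5 classes, with intervals that did not overlap. Epcam in CPM was highest in the shallowest class of both libraries, 50.1 CPM in control and 144 CPM in rescued cells, against 33.99 and 96.4 CPM in the deepest.

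**Figure D1:**
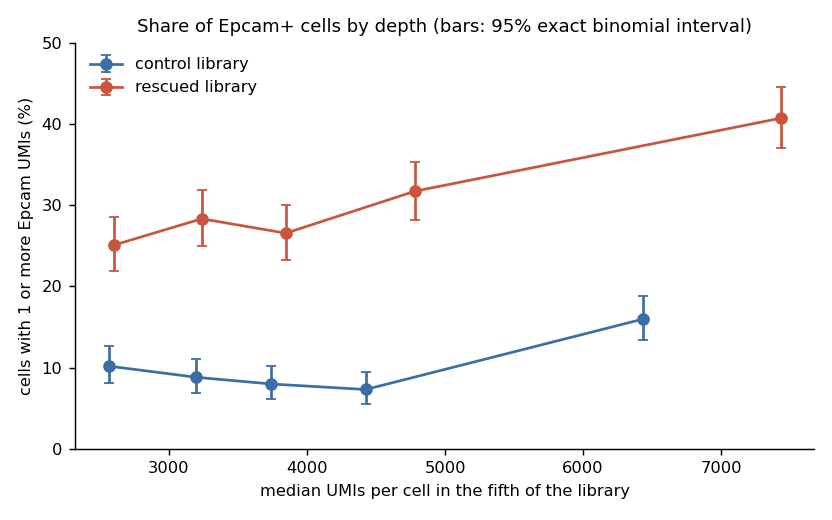
Share of cells with 1 or more Epcam UMIs (%, vertical axis) against the median UMIs per cell of each of 5 equal depth classes of a library (horizontal axis); points are classes, bars are 95% exact binomial intervals, blue is the control and red the rescued library. The rescued points run from 25.1% to 40.7% and lie above all control points, which run from 7.30% to 15.96%.

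Epcam+ cells were spread unevenly over 11 clusters, which were made from both libraries without Epcam, tdTomato or Foxp3 and are called here by number and leading genes. The highest shares were in cluster 8, led by Klrg1, Bicd1 and Il1rl1, with 31.6% (24.4 to 39.6) of its control and 52.7% (46.8 to 58.5) of its rescued cells. This cluster was also the deepest, with a median of 7745.0 UMIs a cell. Cluster 0, led by the chemokine gene Ccl5, by Asb2 and by Lilrb4a, had the shallowest cells, a median of 3137.0 UMIs, and still held 27.5% (20.3 to 35.6) and 37.5% (33.9 to 41.2) Epcam+ cells. The lowest shares were in cluster 3, led by Igfbp4, Ly6c1 and Dapl1, genes of resting T cells, where 19 of 1250 control cells had an Epcam UMI, 1.52% (0.918 to 2.36), and 2 of 70 rescued cells, 2.86% (0.348 to 9.94), at medians of 3772 and 4522 UMIs. Cluster 6, led by the interferon-induced GTPase Gbp2 and by Gata1, followed with 4.61% (2.87 to 6.95) and 11.6% (8.39 to 15.4). The control share of cluster 3 was below the interval of every other control cluster, and its own interval overlapped that of cluster 10 alone, which is led by Ifit3, Ifit1 and Isg15 and held 5.15% (1.69 to 11.6) of 97 control cells. No cell type known to lack Epcam was in the table, so the share of cluster 3 is the lowest one to set the others beside. It is imprecise in the rescued library, and how much of any share came from free RNA was not tested.

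Within the clusters the rescued share was the higher in 11 of 11, and the intervals of the 2 libraries were apart in 6. The cells of the 2 libraries also lay in different clusters, since cluster 3 held 34.4% of control and 2.06% of rescued cells. With the control shares of each cluster weighted by the cluster makeup of the rescued library, the control share was 18.3% instead of 10.04%. The rescued share with the cluster makeup of the control library was 18.3% instead of 30.5%. Of the control Epcam+ cells 27.1% were in cluster 4, led by Gpm6b, Gsta4 and Sh3gl3, which held 20.2% of all control cells. Of the rescued Epcam+ cells 24.98% were in cluster 0, 15.3% in cluster 2, led by Ccr9, Plac8 and Gbp2b, and 15.2% in cluster 8, against 20.3%, 12.6% and 8.79% of all rescued cells.

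**Figure D2:**
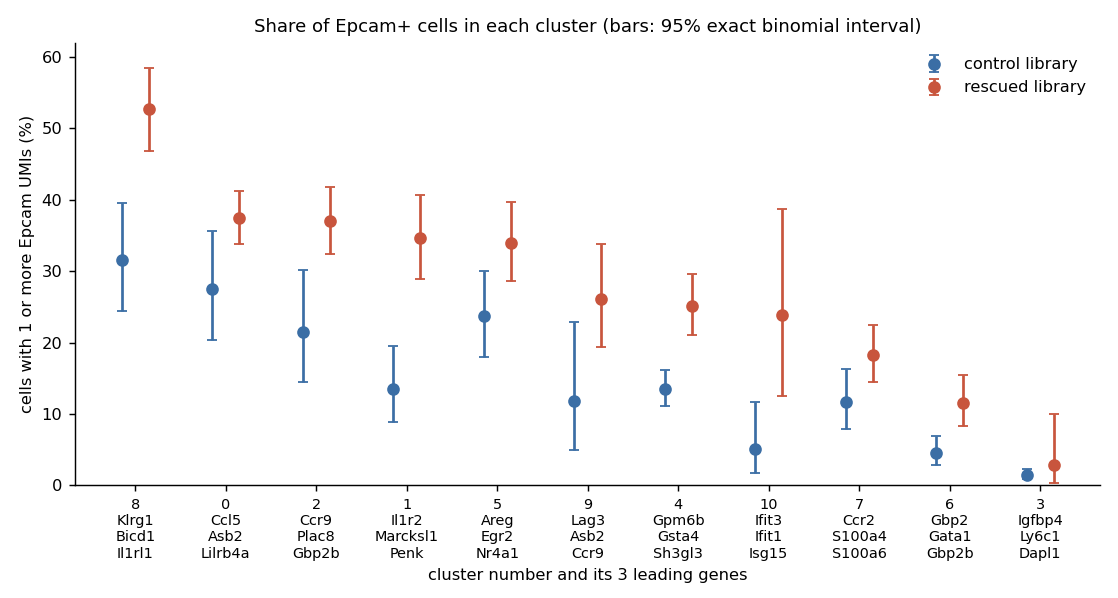
Share of cells with 1 or more Epcam UMIs (%, vertical axis) in each of the 11 clusters, ordered by the rescued share, with the cluster number and its 3 leading genes (horizontal axis); points are libraries, bars are 95% exact binomial intervals. The shares run from 52.7% to 2.86% in the rescued (red) and from 31.6% to 1.52% in the control library (blue), and the red point is the higher in each cluster.

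The Epcam+ cells carried Treg transcripts in both libraries. For the comparisons that follow, each Epcam+ control cell was set beside 3 and each Epcam+ rescued cell beside 1 Epcam- cell of its library with the nearest UMI count, which gave 1095 and 1033 matched cells. The medians were 3908 and 3909 UMIs in control and 4125 and 4124 in rescued cells, and the means 5012 and 4851, and 5116 and 4999. All 8 Treg markers were on the higher side in the Epcam+ cells of both libraries. They included Cd3e and Cd4 of the T cell itself, Ikzf2 (Helios) and Izumo1r (the folate receptor 4 of Treg cells). Foxp3, the lineage factor, was at 100.04 and 72.3 CPM in Epcam+ and matched Epcam- control cells, a log2 ratio of 0.47 (0.21 to 0.73), and at 533 and 435 CPM in rescued cells, a log2 ratio of 0.29 (0.21 to 0.38). Foxp3 had a UMI in 76.5% of Epcam+ cells (73.8 to 79.03) and 72.2% of matched Epcam- cells (69.4 to 74.9) of the rescued library. The 2 groups carry different engineered Foxp3 alleles, and the part of the alleles in the level of the transcript was not tested.

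The reporter, which stays on in cells that were present when 4-OHT was given and in their progeny, was higher in Epcam+ cells of the control library and not in those of the rescued library. In control cells tdTomato was at 498 and 372 CPM, higher in Epcam+ than in matched Epcam- cells by a log2 ratio of 0.42 (0.30 to 0.53). It had a UMI in 72.9% of Epcam+ cells (68.00 to 77.4) and 65.5% of matched Epcam- cells (62.6 to 68.3). In rescued cells it was at 602 and 663 CPM, a log2 ratio of -0.14 (-0.21 to -0.070), with a UMI in 57.1% and 56.9% of Epcam+ and Epcam- cells. The share of Epcam+ control cells was 7.35% (6.01 to 8.88) at 0 tdTomato UMIs, 9.57% (8.25 to 11.01) at 1 to 3 and 19.7% (16.2 to 23.6) at 4 or more, where Epcam stood at 24.7, 29.98 and 46.02 CPM. The same 3 classes of rescued cells held 29.6%, 30.9% and 31.5%. With Epcam- cells taken from the same cluster, the control ratio was 0.074 (-0.040 to 0.19) and the rescued ratio -0.18 (-0.25 to -0.11). By flow cytometry the study found tdTomato in a small part of control and in most rescued Treg cells at this time point. It called control cells positive in the sequencing data by a cutoff on imputed tdTomato levels. Here a tdTomato UMI was found in a larger share of the compared control cells than of the rescued ones. Such a UMI cannot be read as the mark of a labelled cell. The cells are therefore called Epcam+ cells here, and no statement on how long they had persisted is made.

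Transcripts of the other receptors of the study's subset, and of Il2ra, were slightly higher in Epcam+ cells, with Il4ra in control cells on the other side. In the rescued library all 4 of Ifngr1, Lrrc32, Il4ra and Il2ra were higher with intervals above 0, and none reached 1.5-fold. Ifngr1 was at 689.7 and 536 CPM in Epcam+ and matched Epcam- cells, a log2 ratio of 0.36 (0.29 to 0.43). Lrrc32 was at 211 and 162 CPM, a log2 ratio of 0.38 (0.25 to 0.51), and Il2ra at 412 and 316 CPM, a log2 ratio of 0.38 (0.29 to 0.48). Il4ra had the smallest difference, 143 and 120.5 CPM and a log2 ratio of 0.25 (0.095 to 0.41). In the control library Lrrc32 was the one that passed 1.5-fold, at 130.1 and 83.4 CPM and a log2 ratio of 0.64 (0.41 to 0.87). With Epcam- cells from the same cluster it was 0.43 (0.19 to 0.67), and over the 75 control cells with 2 or more Epcam UMIs 0.18 (-0.33 to 0.67). Ifngr1 was at 413 and 341 CPM, a log2 ratio of 0.28 (0.15 to 0.40). The control intervals of Il2ra (0.14, -0.0015 to 0.28) and Il4ra (-0.23, -0.50 to 0.043) included 0. The median over the 4 genes was 0.21 in control and 0.37 in rescued cells, beside 0.031 and 0.021 over all genes with at least 50 UMIs.

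Few cells held all of these transcripts at once at this depth. The study gated its subset on the proteins, so the shares below do not measure the size of that subset. All 4 genes had a UMI in 31 of 365 Epcam+ control cells, 8.49% (5.84 to 11.8), and in 6.67% (5.26 to 8.31) of matched Epcam- cells. In the rescued library the shares were 18.97% (16.6 to 21.5) and 12.7% (10.7 to 14.9), which did not overlap. Ifngr1 was the most often detected, in 80.9% and 77.5% of rescued and 67.1% and 65.1% of control Epcam+ and Epcam- cells. Lrrc32 was detected in 45.01% and 39.9% of rescued and 30.96% and 23.2% of control cells. When the Epcam- cells came from the same cluster, the rescued ratios were 0.30 (0.23 to 0.38) for Ifngr1, 0.23 (0.097 to 0.36) for Lrrc32, 0.28 (0.13 to 0.44) for Il4ra and 0.29 (0.19 to 0.38) for Il2ra.

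**Figure D3:**
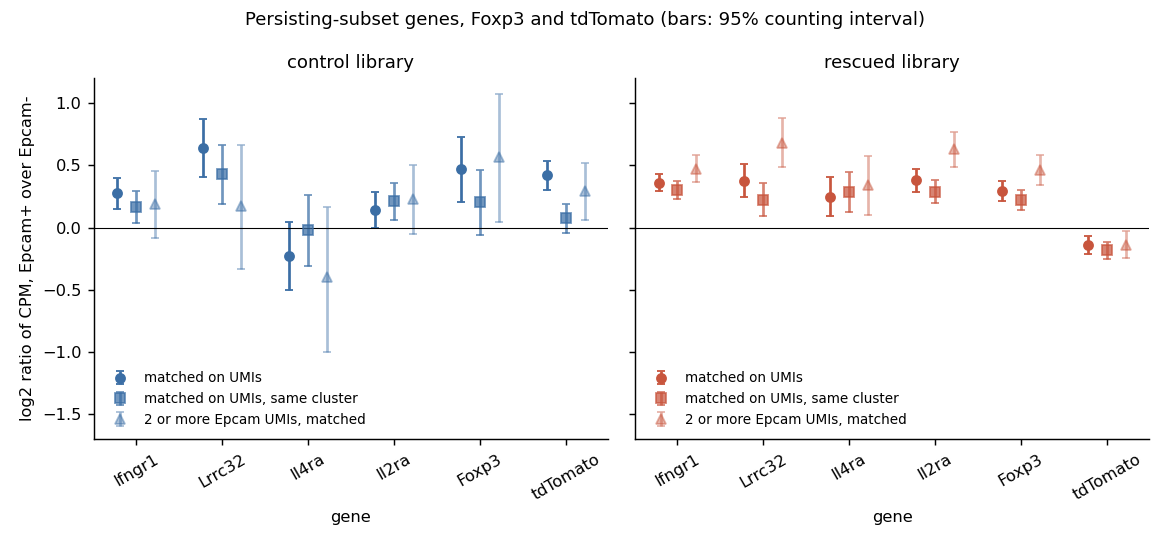
Log2 ratio of CPM, Epcam+ over Epcam- cells (vertical axis), of 6 transcripts (horizontal axis) in the control (left) and rescued library (right); circles are cells matched on UMIs, squares are matched within the same cluster and triangles ask for 2 or more Epcam UMIs, with 95% counting intervals. In the rescued library the receptors and Foxp3 lie above 0 under each setting and tdTomato at -0.14, while in the control library tdTomato lies at 0.42 and Il4ra at -0.23.

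Transcripts of the signalling chains below these receptors stood near the median of all genes. Of 14 genes of interferon-gamma and IL-4 receptor signalling, 13 had at least 50 UMIs in each library, and 0 passed 1.5-fold in either direction in either library. A gene is counted here as higher or lower from 1.5-fold, a rule of size. Of all genes 4.85% were higher and 3.3% lower in control Epcam+ cells, and 2.09% higher and 1.38% lower in rescued ones. The medians of the chain were -0.010 and 0.020. Ifngr2, the signalling chain of the receptor, stood at -0.45 (-0.95 to 0.014) in control and -0.14 (-0.48 to 0.21) in rescued cells, and Socs3, a feedback inhibitor, at -0.28 (-0.50 to -0.060) and -0.099 (-0.21 to 0.016). Of 17 GTPases that interferon-gamma induces, 0 were higher and 1 lower in control cells and 0 higher and 0 lower in rescued cells, with medians of 0.00028 and -0.083. Gbp2, a guanylate-binding protein, was the lower one, at 96.2 and 168 CPM in control Epcam+ and Epcam- cells (log2 ratio -0.80, -1.04 to -0.57), and at 109.9 and 149.9 CPM in rescued cells (-0.45, -0.60 to -0.29). Of 18 genes of the type I interferon response, 0 higher and 5 lower of 17 tested passed in control cells, Ifit3 with -1.06 (-1.67 to -0.50) and Usp18 with -0.90 (-1.36 to -0.47) among the lower ones. In rescued cells 1 higher and 0 lower of 18 passed, and that one was Mx1, an antiviral GTPase (0.94, 0.24 to 1.67).

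The integrin that frees TGF-beta from GARP was also higher in control Epcam+ cells. Itgav and Itgb8 encode the 2 chains of this integrin. In control cells Itgb8 was at 56.9 and 37.1 CPM (0.62, 0.26 to 0.97) and Itgav at 0.65 (0.32 to 0.98). In rescued cells Itgb8 was at 77.2 and 61.97 CPM (0.32, 0.10 to 0.53) and Itgav at 0.055 (-0.18 to 0.29). Tgfbr1, a receptor chain for TGF-beta, stood at 0.52 (0.38 to 0.66) in rescued and 0.11 (-0.14 to 0.35) in control cells. Of 15 genes of GARP and TGF-beta signalling, 3 higher and 0 lower of 14 tested passed 1.5-fold in control cells, Lrrc32, Itgav and Itgb8, and 0 higher and 0 lower of 14 in rescued cells, where all 14 were on the higher side of 0 (medians 0.13 and 0.23). Of 20 genes of interleukin-2 and Stat5 signalling, 4 higher and 0 lower of 20 passed in control and 1 higher and 0 lower of 20 in rescued cells (medians 0.074 and 0.13). Tnfrsf9 (4-1BB), a costimulatory receptor, led them in control cells with 242 and 107 CPM (1.18, 1.00 to 1.36), and was at 267 and 188 CPM in rescued cells (0.51, 0.39 to 0.63). Tnfrsf4 (OX40) stood at 0.62 (0.53 to 0.71) and 0.42 (0.36 to 0.48), and Nfil3, a transcription factor, at 0.73 (0.16 to 1.28) and 0.64 (0.32 to 0.96).

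Treg identity genes were on the higher side as a group. Of 13 such genes 3 were at least 1.5-fold higher in control and 0 in rescued cells, 0 were lower in either, and 12 of 13 were above 0 in each library, with medians of 0.47 and 0.32. The 3 that passed in control cells were Ikzf2, Lrrc32 and Itgb8. Ikzf2 encodes Helios, a transcription factor of thymus-derived Treg cells, and was among the most abundant, at 2118 and 1251 CPM in control Epcam+ and Epcam- cells (0.76, 0.70 to 0.82) and at 1907 and 1527 CPM in rescued cells (0.32, 0.28 to 0.36). It had a UMI in 97.3% of Epcam+ cells (95.02 to 98.7) and 82.1% of matched Epcam- cells (79.7 to 84.3) of the control library, and in 97.3% and 90.8% of rescued Epcam+ and Epcam- cells. Tnfrsf18 (GITR) stood at 0.51 (0.40 to 0.61) and 0.37 (0.30 to 0.44), and Nt5e (CD73), an ectoenzyme that makes adenosine, at 0.52 (0.35 to 0.68) and 0.20 (0.083 to 0.32).

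Genes of resting T cells were lower in Epcam+ cells of both libraries, with some of the largest ratios seen. Igfbp4, Ly6c1, Dapl1, Ms4a4c and S1pr1 of this list are also leading genes of cluster 3, which had the lowest share of Epcam+ cells. The 2 results are therefore not independent. Of 13 such genes 10 were lower and 0 higher in control cells, and 8 lower and 0 higher in rescued cells, with medians of -1.10 and -0.61. Igfbp4, an insulin-like growth factor binding protein, was at 14.8 and 107 CPM in control Epcam+ and Epcam- cells (-2.85, -3.47 to -2.30) and at 4.54 and 34.7 CPM in rescued cells (-2.93, -3.61 to -2.31). Of the Epcam+ cells, 15 of 365 control and 7 of 1033 rescued cells had a UMI of it. Ly6c1, a surface protein of resting T cells, was at 16.9 and 119 CPM (-2.82, -3.39 to -2.30) and at 6.43 and 40.1 CPM (-2.64, -3.21 to -2.11). Dapl1 was rarer still, with 3 UMIs in Epcam+ control cells and 7 in Epcam+ rescued cells, and log2 ratios of -3.63 (-5.93 to -2.05) and -3.86 (-5.21 to -2.76).

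Of the same resting genes, Klf2, a transcription factor that keeps T cells circulating through lymph nodes, was at 349.9 and 852 CPM in control Epcam+ and Epcam- cells (-1.28, -1.41 to -1.16) and at 239 and 501 CPM in rescued cells (-1.07, -1.17 to -0.97). It was detected in 40.5% of Epcam+ cells (35.5 to 45.8) and 68.6% of matched Epcam- cells (65.7 to 71.3) of the control library, and in 33.9% and 48.7% of the rescued cells. S1pr1, the receptor for exit from lymph nodes and a target of Klf2, stood at -1.13 (-1.40 to -0.88) and -0.90 (-1.10 to -0.70). Ccr7, the receptor for entry, stood at -0.85 (-1.06 to -0.65) and -0.60 (-0.80 to -0.40). With Epcam- cells from the same cluster, the median of the resting genes was -0.38 in control and -0.35 in rescued cells. Klf2 was then at -0.55 (-0.68 to -0.42) and -0.39 (-0.50 to -0.28), and Igfbp4 at -1.52 (-2.16 to -0.94) and -1.26 (-2.02 to -0.54).

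Part of the list of activation, tissue migration and tissue adaptation genes taken from the study was higher in control Epcam+ cells. Of 10, 4 were higher and 0 lower in control cells and 0 and 0 in rescued cells, with medians of 0.51 and 0.20. The study chose them on these libraries, so this is not independent evidence of their direction. Itgae (CD103), an integrin that binds E-cadherin, was at 147 and 73.6 CPM in control Epcam+ and Epcam- cells (0.99, 0.76 to 1.22) and at 384 and 289 CPM in rescued cells (0.41, 0.31 to 0.51). Cxcr3, a chemokine receptor of inflamed tissue, stood at 0.95 (0.74 to 1.17) and 0.25 (0.13 to 0.36), Maf at 0.69 (0.58 to 0.81) and 0.15 (0.078 to 0.22), and the costimulator Icos at 0.67 (0.54 to 0.80) and 0.18 (0.11 to 0.25). The difference between the libraries was not tested. Of 20 homing receptors, 2 higher and 2 lower of 16 tested passed in control and 1 higher and 4 lower of 19 in rescued cells. Itgae and Cxcr3 were the higher and Ccr7 and S1pr1 the lower ones in control cells, and in rescued cells Ccr10 was higher and Ccr7, S1pr1, Gpr15 and Itgb1 were lower. Itgb1, the beta chain of the VLA integrins, was at 192 and 181 CPM in control (0.091, -0.090 to 0.27) and at 154 and 275 CPM in rescued Epcam+ and Epcam- cells (-0.84, -0.96 to -0.71). Ccr10, a skin-homing receptor, passed on 61 and 33 UMIs in rescued cells, in 13 and 11 cells.

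Several effector transcripts were higher in Epcam+ cells, and some of them came from few cells. Of 18 suppressor and repair genes, 8 higher and 0 lower of 14 tested passed 1.5-fold in control and 3 higher and 0 lower of 17 in rescued cells, with medians of 0.78 and 0.25. The 3 of the rescued library were Gzma, Il10 and Klrg1, and Klrg1 alone passed in both libraries. In control cells Pdcd1 (PD-1) was at 156 and 67.6 CPM (1.21, 0.98 to 1.43), with a UMI in 33.97% and 15.2% of Epcam+ and Epcam- cells, and Fgl2, a secreted suppressor protein, at 1.15 (0.84 to 1.46). Areg, the tissue-repair factor amphiregulin, stood at 1.23 (0.41 to 2.04) in control and -0.31 (-0.63 to 0.0019) in rescued cells. Its detection in rescued cells went the other way than the ratio of its UMIs, with a UMI in 5.32% of Epcam+ cells (4.04 to 6.87) and 2.61% of matched Epcam- cells (1.73 to 3.78), and in control cells it had a UMI in 4.93% and 1.37%. Klrg1, a receptor of terminally differentiated cells, was higher in both, at 66.1 and 30.1 CPM (1.13, 0.78 to 1.48) and 73.04 and 44.9 CPM (0.70, 0.46 to 0.94). In rescued cells Gzma, encoding granzyme A, had the highest ratio of the genes named for that library, with 56.01 and 8.91 CPM (2.65, 2.20 to 3.13). Its 296 UMIs came from 41 of 1033 Epcam+ cells, and 5 cells held 184 of them, so the interval, which counts UMIs, understates the spread between cells. Without the 5 cells with most Gzma UMIs in each population, the log2 ratio was 2.53 (1.82 to 3.31). Il10, the suppressive cytokine, stood at 1.12 (0.62 to 1.63) in rescued cells, in 45 Epcam+ and 32 Epcam- cells. In control cells, where Epcam+ cells held 4 Gzma and 6 Il10 UMIs, both genes had too few UMIs to be counted.

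The genes with the highest and lowest ratios in each library were named by a rank on the interval bound nearest 0. In control cells Penk, the precursor of enkephalin, was at 225 and 52.5 CPM (2.10, 1.87 to 2.32), with 260 of its 411 UMIs in 5 of the Epcam+ cells. It had a UMI in 11.8% of Epcam+ cells (8.66 to 15.5) and 3.65% of matched Epcam- cells (2.62 to 4.94). Its log2 ratio was 1.44 with 1 matched cell and 3.96 without cells that had 2 or more markers of another cell type. Control cells with 1, 2 and 3 or more Epcam UMIs, each beside their own matched cells, stood at 0.66 (0.36 to 0.97), -0.27 (-0.67 to 0.13) and -0.54 (-0.98 to -0.10). In rescued cells Penk stood at 0.27 (0.061 to 0.49). Lilrb4a, an inhibitory receptor, was detected in 10.96% and 2.47% of control Epcam+ and Epcam- cells (2.37, 1.76 to 3.00) and in 18.4% and 12.1% of rescued ones (0.69, 0.43 to 0.96). Ccl5, a chemokine, was detected in 23.8% and 8.31% of control (1.27, 1.12 to 1.43) and 26.1% and 15.9% of rescued cells (0.85, 0.72 to 0.98). The control ratio of Ccl5 was 0.65 (0.47 to 0.84) with 1 matched cell, 0.66 (0.51 to 0.82) with Epcam- cells from the same cluster and 1.68 (1.54 to 1.82) with no matching. Bicd1, an adaptor of dynein transport, stood at 1.43 (1.02 to 1.83) and 0.73 (0.44 to 1.02). Asb2 and Mgmt, a DNA repair enzyme, were named in control cells, at 1.46 (0.97 to 1.95) and 1.22 (0.88 to 1.56) against 0.23 (-0.0069 to 0.47) and 0.067 (-0.23 to 0.37) in rescued cells.

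In rescued cells the rank named, beside Gzma and Ccl5, Hpgd, Ccl1, Cep112, Itih5, Fcmr and Laptm4b. Hpgd, the enzyme that breaks down prostaglandin E2, had 59 UMIs in Epcam+ and 11 in matched Epcam- cells (2.39, 1.45 to 3.47), in 21 and 8 cells. Itih5 was at 36.1 and 16.8 CPM (1.10, 0.73 to 1.48) and Cep112, a centrosomal protein gene, at 18.2 and 7.36 CPM (1.30, 0.75 to 1.89), in 86 and 33 cells. Fcmr, the receptor for immunoglobulin M, stood at 1.40 (0.71 to 2.14) and Laptm4b, a lysosomal membrane protein, at 1.497 (0.70 to 2.36), on 65 and 52 UMIs in Epcam+ cells. Ccl1 had 41 UMIs, 35 of them in 5 cells. At the lower end, beside Dapl1, Igfbp4, Ly6c1 and Klf2, the rank named Ms4a4c in control cells (-1.55, -2.02 to -1.10) and Plac8 (-1.58, -2.17 to -1.01), Cdca3 and Stmn1 in rescued cells. It also named Nrgn, Ccl4 and Sox4 in control cells, which rested on 2, 5 and 6 UMIs in Epcam+ cells.

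Some cell cycle genes had lower summed levels in Epcam+ cells, in the control library on few cells. Of 18, 0 higher and 4 lower of 13 with at least 50 UMIs passed in control and 0 higher and 6 lower of 16 in rescued cells, with medians of -0.075 and -0.18. The lower ones in rescued cells were genes of mitosis, among them Ccnb2 (cyclin B2; -1.39, -2.09 to -0.73), Ube2c (-1.23, -1.78 to -0.71), Birc5 (survivin; -1.10, -1.77 to -0.46) and Mki67 (-0.66, -1.10 to -0.23), and the microtubule regulator Stmn1 (-1.09, -1.47 to -0.73). They were rare, as 41 of 1033 Epcam+ and 63 of 1033 Epcam- cells had a Stmn1 UMI, and 20 and 37 a Ube2c UMI. In control cells Stmn1 was at -1.43 (-2.09 to -0.82), where a single Epcam- cell held 57 of the 195 UMIs. The share of control cells with a UMI was not lower for each of these genes, at 2.19% and 1.92% of Epcam+ and Epcam- cells for Ube2c, 3.84% and 3.93% for Top2a, 3.56% and 6.03% for Stmn1 and 2.19% and 3.47% for Cdca8, and 1 Epcam- cell held 23 of the 69 control Ube2c UMIs. With every cell thinned to 2000 UMIs and no matching, the rescued ratio of Ube2c was 0.067 (-1.05 to 1.10), and the control ratio with 1 matched cell was 0.15 (-1.30 to 1.63).

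Few genes of the EpCAM protein's partners and proteases differed by 1.5-fold. Of 17, 2 higher and 0 lower of 12 tested passed in control and 0 higher and 1 lower of 12 in rescued cells (medians 0.32 and 0.13). Cd9, a tetraspanin that EpCAM associates with, was at -0.58 (-0.87 to -0.31) in control and 24.03 and 39.3 CPM in rescued Epcam+ and Epcam- cells (-0.71, -1.04 to -0.38). Cd81, another tetraspanin and one of the 2 higher ones in control cells, was at 0.67 (0.51 to 0.83) and 0.50 (0.38 to 0.63). St14, the protease matriptase, had 28 UMIs in control Epcam+ cells (1.54, 0.73 to 2.35), and Spint2, an inhibitor of it, stood at 0.45 (0.24 to 0.67) and 0.24 (0.091 to 0.39). Of 15 Wnt and beta-catenin genes, 0 higher and 0 lower of 13 passed in control and 0 higher and 1 lower of 13 in rescued cells (medians -0.034 and 0.074). The lower one was Tcf7, a transcription factor of resting and stem-like T cells, at -0.47 (-0.65 to -0.30) and -0.75 (-0.96 to -0.55). Lef1, its relative, stood at -0.55 (-0.74 to -0.35) and -0.14 (-0.29 to 0.014).

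Of 19 genes of T cell receptor stimulation, 4 higher and 0 lower of 17 tested passed in control and 0 higher and 0 lower of 17 in rescued cells (medians 0.17 and 0.063). The orphan receptor genes Nr4a3 (1.07, 0.33 to 1.80) and Nr4a1 (0.70, 0.23 to 1.16) and the phosphatase gene Dusp1 (0.98, 0.73 to 1.22) were among the control ones. In rescued cells they stood at 0.20 (-0.33 to 0.74), -0.025 (-0.34 to 0.29) and 0.40 (0.17 to 0.63). Of 15 Bcl2 family genes, 3 higher and 0 lower of 13 passed in control cells, Pmaip1, Bcl2l1 and Bcl2a1b, and 0 higher and 0 lower of 14 in rescued cells (medians 0.043 and -0.013). Bcl2 itself, the survival factor, was at -0.36 (-0.48 to -0.25) and -0.084 (-0.19 to 0.022). Of 15 Hox and related homeobox genes, 3 had enough UMIs in control cells, 1 higher (Hoxb4, 0.81, 0.39 to 1.22) and 1 lower (Satb1, -1.10, -1.33 to -0.87), and 4 in rescued cells, where Hoxb3 was higher (0.77, 0.16 to 1.41). Of 15 stress genes of cell isolation, 0 of 14 tested passed in either library (medians 0.0071 and 0.077), and the Epcam+ and matched Epcam- cells had median mitochondrial shares of 9.27% and 9.35% in control and 8.89% and 8.98% in rescued cells.

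Epithelial and Langerhans cells, the best-known carriers of EpCAM, were looked for among the Epcam+ cells. Of 9 epithelial markers, 6 were in the table, and their summed level was 3.83 and 1.13 CPM in control and 2.65 and 2.71 CPM in rescued Epcam+ and matched Epcam- cells. In each library 4 of the 6 were at 0 in Epcam+ cells, Krt8, Krt19, Cldn3 and Cldn4, and 0 Epcam+ cells had UMIs of 2 of these markers. By 3 counts of the total, this allows UMIs of 2 or more of the markers in up to 0.822% of control and 0.290% of rescued Epcam+ cells. It is a limit on cells with 2 or more markers and not on epithelial cells, since the markers are sparse. A UMI of Krt18 was found in 1.37% of control and 0.678% of rescued Epcam+ cells. Of 13 markers of Langerhans and dendritic cells, 8 were in the table, at 449 and 342 CPM and 661 and 549 CPM. Nearly all of this was Cd74, the invariant chain, and Cst3, cystatin C, while Fscn1 and Ccl22, defining genes of mature dendritic cells, were at 0 in all compared cells. Cells with UMIs of 2 or more of this list were 29.04% of Epcam+ and 18.6% of matched Epcam- control cells, and 43.4% and 31.4% of rescued cells. Of its members with at least 50 UMIs, 2 of 2 in control and 5 of 5 in rescued cells were above 0. Zbtb46, a dendritic cell factor, had a UMI in 12 Epcam+ and 6 Epcam- rescued cells. Cd74 was at 0.56 (0.40 to 0.72) and 0.31 (0.22 to 0.40), with a UMI in 60.2% and 46.2% of rescued cells, and H2-Eb1, a class II chain, stood at 1.98 (0.91 to 3.09) and 1.00 (0.46 to 1.55) on 19 and 90 UMIs in Epcam+ cells. The markers of B cells summed to 51.4 and 36.1 CPM and 56.2 and 52.9 CPM, those of CD8 T and NK cells to 93.5 and 67.96 CPM and 52.2 and 43.4 CPM, those of macrophages and granulocytes to 0.547 and 0.377 CPM and 0.378 and 1.16 CPM and those of red cells to 0.547 and 0.188 CPM and 1.14 and 1.74 CPM. Most of the CD8 and NK sum was Nkg7, a granule protein gene (0.59, 0.28 to 0.89, and 0.40, 0.072 to 0.73). The part of such transcripts in the gene ratios was not tested beyond leaving out the cells with 2 or more markers of another type, which kept 256 of 365 and 584 of 1033 Epcam+ cells and left Lrrc32 at 0.72 (0.43 to 1.01) and 0.50 (0.32 to 0.69). The same step lowered the ratios of Ifngr1 in control cells and of Il2ra in rescued cells, which are given in the closing section on processing.

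The 2 libraries share no cells in these comparisons, and their gene lists overlapped in part. Of 8657 genes measured in both, 32 (0.37%) were at least 1.5-fold higher and 29 (0.335%) at least 1.5-fold lower in Epcam+ cells of both, 6 (0.0693%) were higher in control and lower in rescued cells and 4 (0.0462%) the reverse. Those higher in both, out of 422 in control and 194 in rescued cells, included Ccl5, Bicd1, Lilrb4a, Klrg1 and Nfil3. By the rule for both libraries, which ranks by the smaller of the 2 ratios, the gene named on the higher side was Rgs9, a regulator of G protein signalling, on 24 and 38 UMIs in Epcam+ cells (1.27, 0.42 to 2.10, and 0.97, 0.14 to 1.84). Named after their values were seen, Mmd was at 133 and 66.6 CPM in control (1.00, 0.76 to 1.24) and 150.2 and 87.5 CPM in rescued cells (0.78, 0.61 to 0.95), and Ptprj, a receptor phosphatase, stood at 1.27 (0.66 to 1.87) and 0.88 (0.46 to 1.32). Those lower in both, out of 287 and 128, included Dapl1, Igfbp4, Ly6c1, Klf2, S1pr1, Ccr7, Actn1, the sodium pump subunit gene Atp1b1 (-1.18, -1.83 to -0.58, and -1.13, -1.74 to -0.54), the mitotic genes Stmn1, Ube2c and Cdca8 and, named after their values were seen, Cd55 (-1.27 and -0.78) and Crip1 (-0.60 and -0.62). With Epcam- cells from the same cluster, 165 genes were higher in control cells. With a minimum of 200 UMIs 116 were higher and 72 lower in control and 24 higher and 22 lower in rescued cells.

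**Figure D4:**
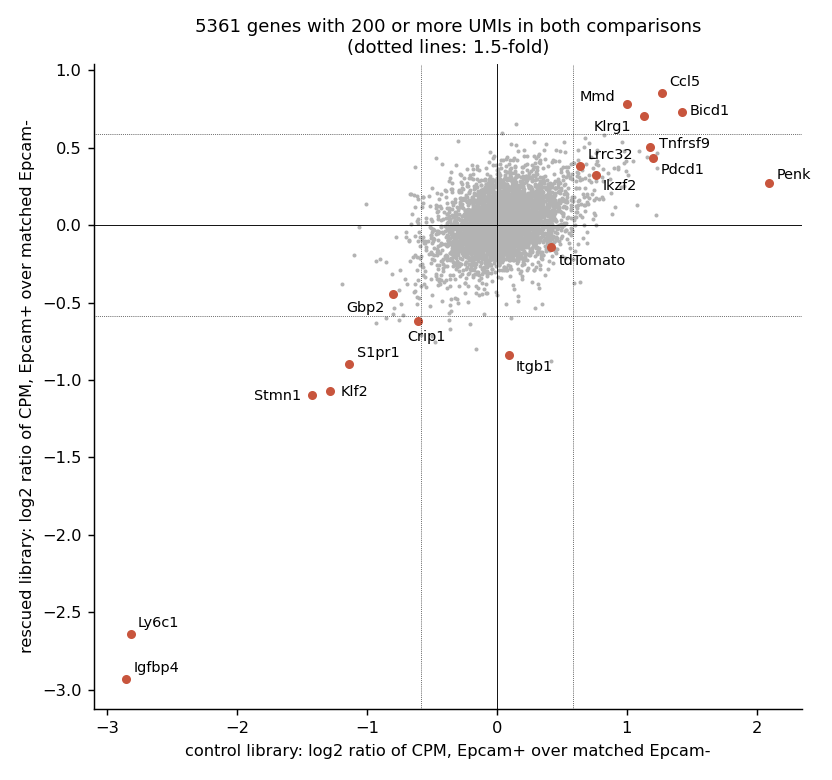
Log2 ratio of CPM, Epcam+ over matched Epcam- cells, in the control (horizontal axis) and the rescued library (vertical axis); each point is 1 of 5361 genes with 200 or more UMIs in both comparisons, named points are red and dotted lines mark 1.5-fold. Igfbp4 and Ly6c1 lie far down in both libraries, Ccl5, Bicd1, Mmd and Klrg1 past 1.5-fold up in both, Penk far to the right (2.10) and Itgb1 low in the rescued library alone (-0.84).

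In the rescued library several differences were larger in cells with more Epcam UMIs. The 624 cells with 1, the 234 with 2 and the 175 with 3 or more Epcam UMIs were each matched to their own Epcam- cells. Lrrc32 stood at 0.25 (0.069 to 0.43), 0.69 (0.40 to 0.98) and 0.81 (0.52 to 1.10) in this order. Il2ra stood at 0.14 (0.011 to 0.26), 0.44 (0.25 to 0.63) and 0.76 (0.56 to 0.96), and Foxp3 at 0.16 (0.049 to 0.27), 0.36 (0.19 to 0.52) and 0.51 (0.34 to 0.69). For each of the 3 genes the intervals of the cells with 1 and with 3 or more Epcam UMIs did not overlap, while those of neighbouring classes did. Ifngr1 (0.29, 0.53 and 0.37) and Il4ra (0.12, 0.44 and 0.14) showed no such order. On the lower side Klf2 went from -0.76 (-0.89 to -0.63) to -1.39 (-1.61 to -1.19) and -1.55 (-1.79 to -1.30), and Lgals1, encoding galectin 1, from -0.28 (-0.39 to -0.18) to -0.60 (-0.76 to -0.44) and -0.89 (-1.05 to -0.73). The level of Lgals1 was nearly the same in the Epcam+ classes, at 451, 447 and 443 CPM. It rose in their matched Epcam- cells, at 547, 678 and 820 CPM, so the order of its ratios came from the compared cells. Itgb1 stood at -0.48, -1.27 and -1.13 and S100a6, a calcium-binding protein gene of migratory T cells named after its values were seen, at -0.035, -0.89 and -0.93. S100a6 was at 675, 576 and 599 CPM in the Epcam+ classes and at 692, 1065 and 1143 CPM in their matched Epcam- cells. tdTomato had no order, with -0.052 (-0.15 to 0.042), -0.49 (-0.64 to -0.35) and 0.092 (-0.062 to 0.25). The control classes of 48 and 27 cells were too few to order, and Ccl5 went from 2.64 to -1.93 between them.

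**Figure D5:**
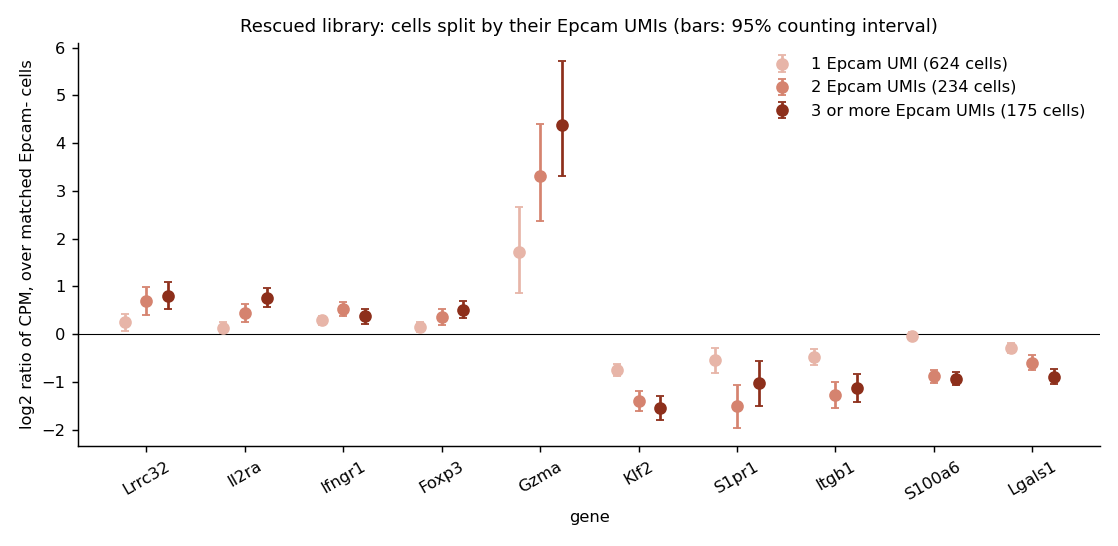
Log2 ratio of CPM over matched Epcam- cells (vertical axis) of 10 genes (horizontal axis) in rescued cells with 1 (pale), 2 (middle) and 3 or more Epcam UMIs (dark); bars are 95% counting intervals. Lrrc32 and Il2ra go up from 0.25 to 0.81 and from 0.14 to 0.76, and Klf2 and Lgals1 go down from -0.76 to -1.55 and from -0.28 to -0.89. For Lgals1 the matched Epcam- cells change, from 547 to 820 CPM, while the Epcam+ cells stay at 451 to 443 CPM.

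Splits of the cells by other surface genes gave some of the same differences. The same matching, with 1 cell each, was applied to cells with a UMI of Ccr9, a gut-homing receptor (183 control and 408 rescued cells), and of Itgae (608 control cells and 1927 rescued cells, of which 1463 had an Itgae- partner). In rescued cells Ifngr1 stood at 0.36 (0.29 to 0.43) in the Epcam split, 0.10 (-0.011 to 0.22) in the Ccr9 split and 0.013 (-0.053 to 0.080) in the Itgae split. In control cells it was on the higher side in all 3, at 0.27 (0.12 to 0.43), 0.24 (0.014 to 0.47) and 0.34 (0.22 to 0.47). Lrrc32 in rescued cells was higher in all 3, at 0.38 (0.25 to 0.51), 0.64 (0.44 to 0.84) and 0.46 (0.33 to 0.58), and so was Il2ra, at 0.38, 0.55 and 0.55. Il4ra in rescued cells stood at 0.25 (0.095 to 0.41), 0.66 (0.42 to 0.90) and 0.20 (0.052 to 0.34), and in control cells at -0.26, 0.21 and -0.17. Klf2 stood at -1.07, -1.58 and -0.54 in rescued and -1.22, 0.12 and -0.65 in control cells. tdTomato stood at -0.14, -0.18 and -0.34 in rescued and 0.43, -0.30 and 0.16 in control cells. Ikzf2 in rescued cells stood at 0.32 (0.28 to 0.36) in Epcam+, -0.43 (-0.50 to -0.35) in Ccr9+ and 0.18 (0.14 to 0.22) in Itgae+ cells, and in control cells at 0.82, -0.24 and 0.33. Ccl5 stood at 0.85, -0.68 and 0.41 in rescued and 0.65, 0.75 and 0.64 in control cells. Gzma in rescued cells was higher in each split, at 2.65, 1.87 and 2.67. Igfbp4 was lower in each, at -2.93, -2.01 and -2.67. Epcam itself stood at 0.52 (0.26 to 0.80) in Ccr9+ and 0.65 (0.49 to 0.81) in Itgae+ rescued cells. The splits share cells, and the differences between them were not tested.

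Epcam+ rescued cells were then set beside Epcam+ control cells, 365 of each with a median of 3908 UMIs. Of 7463 genes 234 (3.14%) were at least 1.5-fold higher and 295 (3.95%) at least 1.5-fold lower in the rescued cells. Ifngr1 was at 696 and 413 CPM in rescued and control Epcam+ cells (0.75, 0.62 to 0.89), Il4ra at 150.2 and 79.8 CPM (0.91, 0.62 to 1.21), Lrrc32 at 200.1 and 130.1 CPM (0.62, 0.38 to 0.86) and Il2ra at 389 and 302 CPM (0.36, 0.20 to 0.53). For Ifngr1 and Il4ra this ratio was larger than the ratio between Epcam+ and Epcam- cells in either library. By the rank on the interval bound nearest 0, the genes named on the higher side were Gzma (86 against 4 UMIs; 4.43, 3.02 to 6.34), Foxp3 (521 and 100.04 CPM; 2.38, 2.15 to 2.62), Il10 (60 against 6 UMIs; 3.33, 2.12 to 4.83), Gbp2b (2.10, 1.63 to 2.59) and Ccr9 (1.996, 1.51 to 2.51). Those named on the lower side were Nkg7 (-2.02, -2.60 to -1.47), Tcf7 (-1.66, -1.99 to -1.33), Actn1 (-1.72, -2.25 to -1.22), Ccr7 (-1.39, -1.76 to -1.02) and Themis (-1.93, -2.99 to -0.99). tdTomato stood at 664 and 498 CPM (0.41, 0.29 to 0.54). Of the activation, migration and tissue adaptation genes 6 higher and 0 lower of 10 passed, Itgae first with 1.41 (1.21 to 1.62), of the resting genes 0 higher and 5 lower of 10 tested, of the interferon-gamma induced GTPases 3 higher and 0 lower of 16 tested and of the suppressor and repair genes 7 higher and 1 lower of 16 tested. Of the stress genes of cell isolation 0 higher and 2 lower of 14 tested passed, with a median of -0.33, and the lower ones were the heat shock genes Hspa1a (-1.42, -2.06 to -0.81) and Hspa1b (-1.11, -1.48 to -0.75). Their part in the other differences between the libraries was not tested. Mouse, capture and genotype cannot be told apart in this comparison. The genes named here by the rank also differed, in the same direction, between the matched Epcam- cells of the 2 libraries. Foxp3 was at 435 and 72.3 CPM in rescued and control Epcam- cells, Ccr9 at 109 and 25.04 and Gbp2b at 99.5 and 22.97. Tcf7 was at 99.7 and 245 CPM and Ccr7 at 99.9 and 225. Gzma (8.91 and 1.51 CPM) and Il10 (9.68 and 4.71 CPM) differed less there. These differences were therefore not confined to Epcam+ cells.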

How the data were processed

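Counts of molecules (UMIs) per gene and cell were deposited by the authors in a single table, made with Cell Ranger 3.0 on GRCm38 with the tdTomato sequence added, and Seurat 3.1.5 is named in the submitters' processing notes. A log2-normalised table was also deposited by the authors and was not used. Cells were assigned to the control or rescued library by the prefix of their names. The count table held 0 ribosomal protein genes, so UMIs per cell, CPM and mitochondrial shares are all relative to the remaining genes. The study's methods state limits of 1000 molecules and of 5% mitochondrial content, but 6859 of the 7024 cells exceeded 5% of these reduced totals. Whether the study applied its limit to other totals was not tested. Doublets were not removed in the main comparison.

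CPM were computed with Epcam left out of the totals. Each Epcam+ cell was matched without replacement to Epcam- cells of its library by UMIs, 3 in the control and 1 in the rescued library, where 3 were planned but too few Epcam- cells exist. Summed counts were compared as log2 ratios with conditional exact intervals. With 1 library per group there was no test. Genes with at least 50 UMIs over both populations were counted as higher or lower from 1.5-fold. Cells were clustered with scanpy 1.11.5 without Epcam, tdTomato and Foxp3. TMM factors came from edgeR 4.0.16. Named genes were the 8 highest and 8 lowest per library and 5 between libraries by the interval bound nearest 0, the 10 with the largest smaller ratio past 1.5-fold in both, the study's genes, Foxp3, tdTomato and up to 6 members of each list with the largest ratios, leaving out mitochondrial, immunoglobulin and T cell receptor genes and unnamed gene models. Some genes covered by the rule are not reported here. The members and lists were chosen with earlier results of these data known. The scripts were tested on simulated data. Alternatives changed the matching, the Epcam threshold, depth, scaling, the UMI minimum and the cells kept.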

Additional observations from a re-analysis of the deposited data

Results flagged for a closer look

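In 4 of the named or listed genes the ratio of Epcam+ to matched Epcam- cells lay on opposite sides of 0 in the 2 libraries, with both counting intervals away from 0. With 1 library per group, the difference was not tested in any of them. tdTomato, the reporter, had a log2 ratio of 0.42 (0.30 to 0.53) in control and -0.14 (-0.21 to -0.070) in rescued cells. With Epcam- cells from the same cluster the control value was 0.074 (-0.040 to 0.19). All rescued GFP+ cells stem from cells in which Cre acted, so there the reporter does not divide cells by their presence at treatment. In control cells a tdTomato UMI cannot be read as the mark of a labelled cell either. Bcl2l11, which encodes the death factor Bim, stood at -0.47 (-0.93 to -0.029) and 0.43 (0.056 to 0.82), or at 28.97 and 40.1 CPM in control and 26.7 and 19.8 CPM in rescued Epcam+ and Epcam- cells. Ccl1, a chemokine, stood at -1.57 (-3.26 to -0.23) and 2.15 (1.09 to 3.38), and in the rescued library 35 of its 41 UMIs were in 5 Epcam+ cells. Ccl4, another chemokine, stood at -2.57 (-4.23 to -1.29) and 2.61 (1.08 to 4.59), and in the control library 1 matched Epcam- cell held 68 of its 86 UMIs. Its rescued ratio rested on 25 and 4 UMIs, also below that minimum, in 4 Epcam+ and 4 Epcam- cells. In control cells it had a UMI in 0.82% and 0.64% of Epcam+ and Epcam- cells. Of the 8657 genes measured in both libraries, 6 (0.0693%) were past 1.5-fold higher in control and lower in rescued cells and 4 (0.0462%) the reverse.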

How the results depend on the processing

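No paired analysis was possible because there was a single library for the control and for the rescued mice. The share of Epcam+ cells depended on depth and threshold. With every cell thinned to 1000 UMIs it was 2.94% in control and 10.5% in rescued cells, thinned to 2000 UMIs 5.66% and 18.5%, and with 2 or more Epcam UMIs 2.06% and 12.1%. The counts of genes past 1.5-fold in control cells were 732 higher and 436 lower with no matching and 756 and 616 with no matching and every cell thinned to 2000 UMIs. They were 747 and 525 with a minimum of 20 UMIs and 116 and 72 with 200, and 165 were higher with Epcam- cells from the same cluster. In rescued cells they were 415 and 284 with a minimum of 20 UMIs and 24 and 22 with 200. Between the libraries' Epcam+ cells they were 492 and 566 with a minimum of 20.

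Within the same cluster, the control medians were 0.24 for the activation and tissue genes and -0.38 for the resting genes, the rescued ones 0.066 and -0.35, Il2ra in rescued cells 0.29, Lrrc32 0.23 and tdTomato in control cells 0.074. With 2 or more Epcam UMIs, Lrrc32 in control cells was 0.18, tdTomato 0.29 and the resting median -1.42, and in rescued cells Ifngr1 was 0.48, Il2ra 0.63, Lrrc32 0.68 and the median of the study's genes 0.55. With no matching, the control median of the activation and tissue genes was 0.79 and Ifngr1 in rescued cells 0.28. With no matching and every cell thinned to 2000 UMIs, which changes both choices, the control medians of the activation and tissue genes and of the resting genes were 0.83 and -1.42, and Ifngr1 was 0.13 in control and 0.18 in rescued cells. Without cells that had 2 or more markers of another cell type, Ifngr1 in control cells was 0.14 and Il2ra in rescued cells 0.22. With all Epcam- cells weighted to the same UMIs, an alternative chosen after seeing the data, tdTomato in rescued cells was -0.23.

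The ratio changed sign for Ube2c in control cells with 1 matched cell (0.15) and, in rescued cells, for Ube2c (0.067) and Cdca3 (0.045) with thinning and no matching. It also changed for Ccl4 in control cells with thinning and no matching (0.74) and without cells with 2 or more markers of another type (3.55). The cause was not tested. TMM factors, and leaving out the highest Scrublet scores, moved 0 of the values that answer a comparison. Leaving out the 5 cells with most UMIs of each gene was also chosen after seeing the data. The control values, from 365 Epcam+ cells with mostly 1 Epcam UMI, are the less precise.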
